A study of Mus musculus with 12 samples.

Results

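The genes described here are 9 transcripts usually credited to hepatocytes: Alb, Ahsg, Trf, Ttr, Apoa1, Apoe, Fgb, Serpina1a and Cps1. They are 9 of the 54227 gene symbols in the deposited table and were taken from it by symbol. They were selected with their levels in these 12 libraries, and their ratios to Alb, already in view. Levels, differences and ratios of the 9 genes are therefore given as a description, without a test. The genes Alb, Ahsg, Trf, Ttr, Apoa1, Apoe, Fgb and Serpina1a encode proteins secreted into plasma, whereas Cps1 encodes a mitochondrial enzyme of the urea cycle, so 8 of the 9 are plasma proteins.

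The libraries came from dissociated livers of C57Bl/6 mice that carried a Sox9EGFP transgene, in which EGFP reports on Sox9, a transcription factor of bile duct cells. Mice had been fasted for 16 h, and cells were sorted by EGFP into neg (no EGFP), sub (below low), low and high populations, with 3 libraries each and 12000 cells collected per population. All 4 populations carried the same transgene and had the same fast; no age, sex or further treatment is given in the labels. Nothing in the labels says whether the 3 libraries of a population came from separate mice. Library names carry 3 suffixes that recur in all 4 populations and may mark animals, which the labels do not say, so the spread and the p-values measure the differences between these libraries only. Since gates are drawn on fluorescence, a population need not be a single cell type, and the neg population is what remains of the digest without EGFP rather than a hepatocyte preparation.

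In the adult liver, hepatocytes make most plasma proteins and secrete them into the blood, while the cholangiocytes that line the bile ducts modify bile. Albumin (Alb) carries fatty acids and keeps up the oncotic pressure of plasma, and its transcript is among the most abundant of the hepatocyte. Liver-enriched transcription factors such as HNF4, FOXA and C/EBP proteins bind the promoters of many of these genes. Some of these factors, among them Foxa2, are also made by biliary cells, which arise from the same embryonic progenitor as hepatocytes. In total RNA from bulk samples, fewer cells of a type and less RNA per cell cannot be told apart.

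The promoters of 4 members are shown because these 4 mark both ends of the pattern: Alb and Ahsg were present in all 9 libraries of the EGFP-positive populations (sub, low and high), and Fgb and Serpina1a were listed at 0 in most of them. Each is the 200 bases before the start site in RefSeq on build GRCm38.p6, read 5′ to 3′ on the gene's strand. Capitals mark CCAAT (the core of a CCAAT box) on either strand, so that ATTGG is its reverse complement. The regions are chr5:90460670-90460869 (+) for Alb, chr16:22891815-22892014 (+) for Ahsg, chr3:83049864-83050063 (−) for Fgb and chr12:103863620-103863819 (−) for Serpina1a. The Ahsg window lies inside the GENCODE gene, which begins further upstream; the RefSeq start site was used.
Alb: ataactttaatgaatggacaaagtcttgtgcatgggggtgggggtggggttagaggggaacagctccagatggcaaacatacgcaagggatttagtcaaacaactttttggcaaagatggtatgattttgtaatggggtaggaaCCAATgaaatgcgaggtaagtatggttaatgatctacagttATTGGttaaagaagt
Ahsg: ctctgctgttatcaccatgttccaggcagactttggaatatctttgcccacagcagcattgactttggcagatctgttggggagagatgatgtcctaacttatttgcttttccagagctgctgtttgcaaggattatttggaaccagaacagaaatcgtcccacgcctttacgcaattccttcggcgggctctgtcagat
Fgb: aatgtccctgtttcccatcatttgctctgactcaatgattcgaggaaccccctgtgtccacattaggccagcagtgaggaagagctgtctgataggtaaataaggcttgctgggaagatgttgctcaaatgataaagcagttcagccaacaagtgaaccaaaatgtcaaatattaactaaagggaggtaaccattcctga
Serpina1a: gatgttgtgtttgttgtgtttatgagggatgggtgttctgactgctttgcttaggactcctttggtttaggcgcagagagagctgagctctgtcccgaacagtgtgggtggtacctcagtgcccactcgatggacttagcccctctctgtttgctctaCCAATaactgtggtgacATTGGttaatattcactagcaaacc

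CCAAT stood at −56 to −52 and, on the opposite strand, at −15 to −11 before the Alb start site, and likewise at −42 to −38 and, on the opposite strand, −25 to −21 in Serpina1a. It was found in 29.3% of the 32851 promoters in the RefSeq table over windows of the same length. CCAAT was in neither the Ahsg nor the Fgb window, and neither TATAAA on the gene's strand (6.3% of promoters) nor the HNF4 element CAAAGNNCA on either strand (4.4%) was in any of the 4. CCAAT was thus present in the window of 1 gene of each kind, Alb and Serpina1a. A letter match is not evidence that a factor binds there. RefSeq entries were used for 6 of the 9 members.

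The deposited values are normalised counts, read counts divided by a factor per library, and 1 read was worth 0.691 to 1.22. Recovered depth ran from 8775387 to 15535588 reads per library, with 9039 to 12687 genes above 0. Values of 0 were common. Of 17 housekeeping genes looked at, 7 were listed at 0 in at least 1 library, among them Tbp in 3, Pgk1 in 4 and Gusb in 5. Among genes with a mean of at least 100 in a population, the share with at least 1 library at 0 was 41.0% (neg), 42.5% (sub), 33.6% (low) or 25.1% (high). A member listed at 0 is therefore given library by library and is not called absent. All 9 members passed the filter of a mean of at least 10 over the 12 libraries, as did 16128 genes in all.

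The labelled gates were checked against markers. The summed level of 15 biliary genes (Epcam, Krt19, Sox9 and others) went from 1881 ± 599 (SD, n = 3) in the neg gate to 34265 ± 5707 in sub, and was highest at 95008 ± 14312 in low, next to 80324 ± 2765 in high. Of these genes 8 rose in sub against neg, where limma called 1.04% of all 16128 genes higher, and 13 each rose in low (2.55% of genes) and in high (2.44%). The duct keratin Krt7 passed in none of the 3 (limma adjusted p = 0.703, 0.145 and 0.211). Sox9 was among the risers each time, at a mean of 4866, 12097 and 13087 in sub, low and high. The gates were sorted on a reporter of Sox9, so its part in the sum and in these counts is no check of them. Neg libraries were led by endothelial markers instead, with a summed level of 152736 to 222789 over 12 of 12 genes. The sub population held 40893 to 55885 of the endothelial sum and 31776 to 41166 of the 14-gene stellate sum, against 1024 to 2930 and 857 to 2816 in low. It was thus a mixed gate, whereas low and high held little of both lists.

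Alb was far higher in the EGFP-positive populations than in neg. Its normalised count was 301.2, 0 and 183.5 in neg libraries 1, 2 and 3, then 4133, 1302 and 5182 in sub, 8181, 10201 and 15355 in low, and 10123, 13041 and 12616 in high. No EGFP-positive library overlapped neg, low did not overlap sub, and low and high overlapped each other. The ratio of means to neg was 21.9 for sub, 69.6 for low and 73.8 for high, low was 3.18 times sub, and high was 1.06 times low. The gene lies at chr5:90460897-90476602 on the plus strand of mm10 (ENSMUSG00000029368.10). On the log2(normalised count + 1) scale the difference between low and neg was 8.15 ± 1.34 (SE from limma), and it was 5.52 without neg replicate 2, the library at 0.

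Ahsg encodes fetuin-A, a plasma glycoprotein that keeps calcium phosphate in solution. It was close to undetected in neg, with normalised counts of 0.69, 0 and 0, that is 1 read in 3 libraries. The counts were 938.2, 1286 and 1643 in sub, 3344, 2583 and 3883 in low, and 5018, 5118 and 5667 in high. The 4 populations did not overlap at any step, and the level was higher at each step of EGFP. Against a floor of 3 reads per library, Ahsg was at least 448-fold higher in sub, at least 1136-fold higher in low and at least 1829-fold higher in high than in neg. Low was 2.54 times sub and high was 1.61 times low, whereas Alb differed by only 1.06 times between high and low. Ahsg (ENSMUSG00000022868.6) lies at chr16:22891277-22899449 on the plus strand and shares 62 exon bases with the antisense gene Gm30505. Whether counting used strand is not given in the sources used here, so reads in those bases cannot be assigned.

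Trf encodes transferrin, the iron carrier of plasma. Its normalised count was 259.1, 315.5 and 0 in neg, 2100, 1544 and 3716 in sub, 1173, 1464 and 1571 in low, and 1800, 2259 and 2667 in high. All EGFP-positive libraries lay above all neg libraries, and the highest level was in sub 3 rather than in low or high. Sub overlapped low and high, while high lay above low by 1.60 times with no overlap. The ratio of means to neg was 12.8 for sub, 7.32 for low and 11.7 for high. On the log2 scale the difference between low and neg was 5.0 ± 1.51 (SE), and 2.28 without neg replicate 3, which is at 0. Trf (chr9:103204001-103230444, minus strand, ENSMUSG00000032554.15) shares 2108 exon bases with the annotated gene Gm20425 on the same strand. The deposited table has no row under that symbol, so whether any Trf reads were assigned to it cannot be seen.

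Ttr encodes transthyretin, which carries thyroxine and, with retinol-binding protein, vitamin A. It was listed at 0, 0 and 0.97 in neg, or 1 read in all. The counts were 577.0, 134.0 and 11.0 in sub, 837.1, 18.7 and 402.7 in low, and 1257, 1808 and 800.4 in high. Every EGFP-positive library was above neg, but sub and low each spread widely between their own libraries, and high overlapped low at a single library (low 1 above high 3). High was at least 447-fold above neg, low at least 146-fold and sub at least 83.6-fold. Ttr lies at chr18:20665280-20674321 on the plus strand (ENSMUSG00000061808.4).

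**Figure D1:**
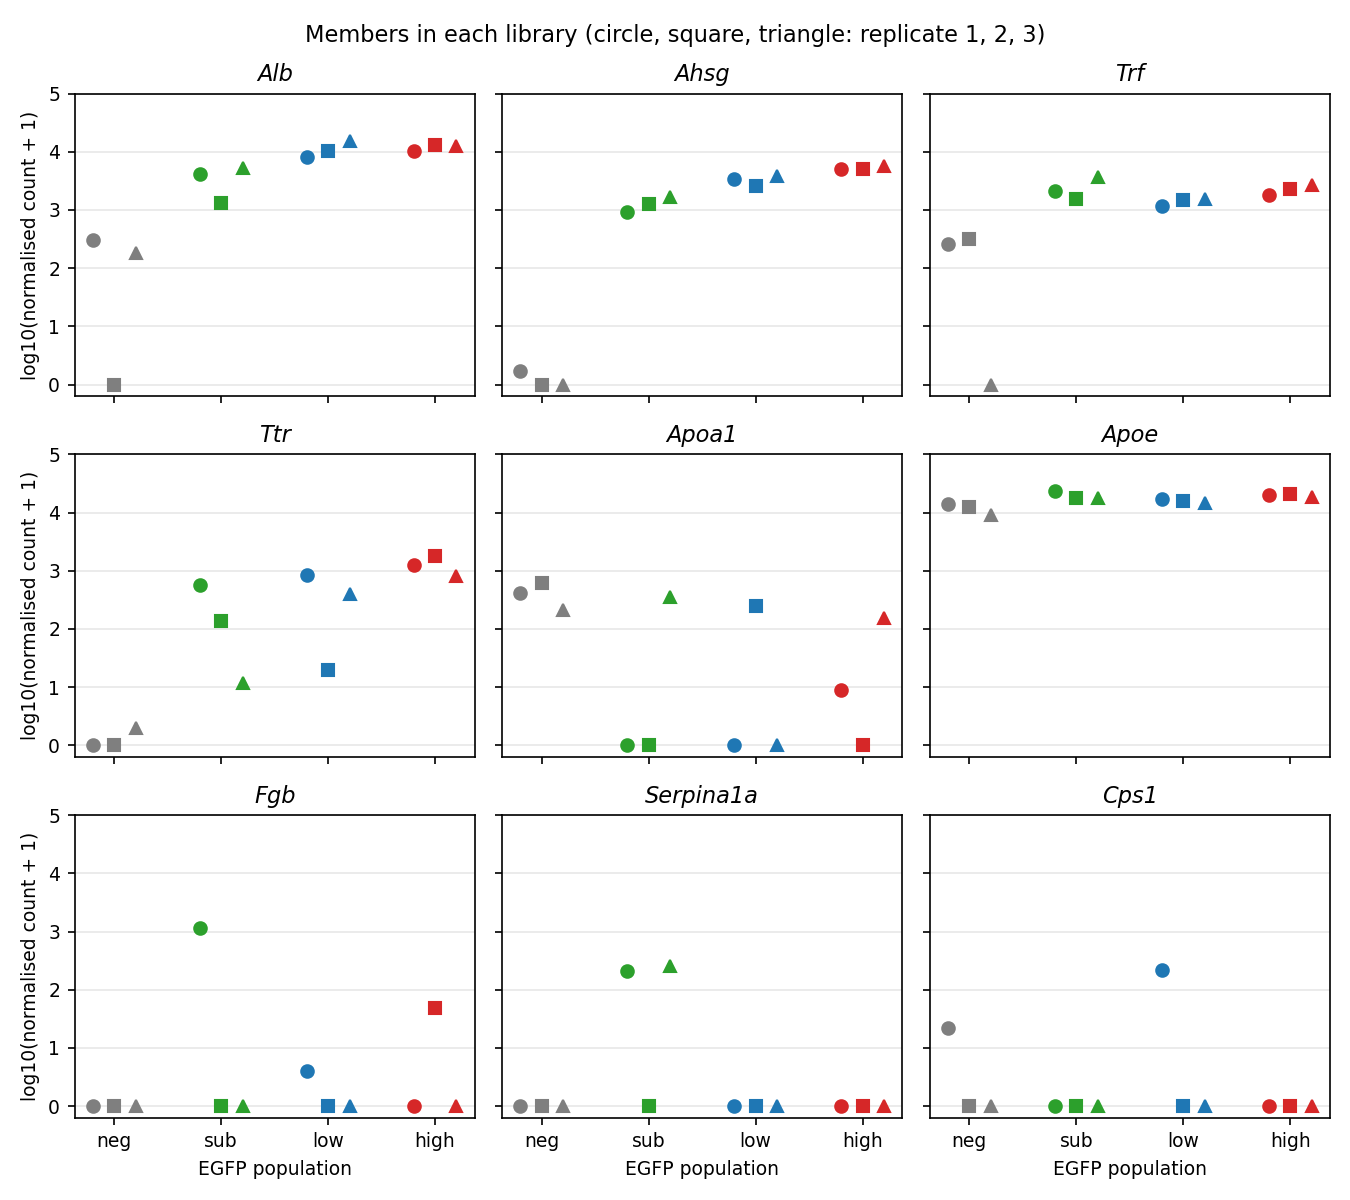
Level of each of the 9 members in each library, as log10(normalised count + 1) on the vertical axis and EGFP population on the horizontal axis; points are single libraries and the symbols give the replicate number. Alb, Ahsg, Trf and Ttr lie above neg in all 9 EGFP-positive libraries, Apoe is high in all 12, and Fgb, Serpina1a and Cps1 sit at 0 in most.

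The apolipoproteins went separate ways. Apoe, a ligand for lipoprotein receptors that macrophages, stellate cells and other cells also make, was abundant in all 12 libraries. Its normalised count was 13912, 12389 and 9118 in neg, 23338, 17952 and 17917 in sub, 17370, 15588 and 14408 in low, and 20253, 21133 and 18558 in high. EGFP-positive libraries were all above neg, by 1.67 times in sub, 1.34 times in low and 1.69 times in high, and low lay below both sub and high without overlap. The log2 difference from neg was 0.75 ± 0.16 (SE) for sub, 0.44 ± 0.16 for low and 0.78 ± 0.16 for high, the smallest of the 5 members present in every EGFP-positive library. Apoe lies at chr7:19696109-19699188 on the minus strand (ENSMUSG00000002985.16).

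Other cells that make Apoe were present to different degrees. The 14-gene stellate sum lay between 27830 and 43921 in neg and between 31776 and 41166 in sub, but only between 857 and 2816 in low and between 682 and 2797 in high, with 3 to 9 of its genes above 0 in a low library. The 14-gene Kupffer cell and macrophage sum lay between 0 and 1007 in neg, 490.0 and 652.2 in sub, 822 and 1220 in low, and 519 and 1526 in high, and C1qa, C1qc and Tyrobp were listed at 0 in all 12 libraries. In low the sum was mostly Csf1r, at 670.2, 814.0 and 1133 against 0 in all neg libraries, while Ctss, Cd5l, Lyz2 and Cd68 were each above 0 in 1 low library (179.3, 86.3, 78.7 and 72.7) and the other 9 genes of the list were at 0 in low. In high Csf1r was at 945.8, 722.6 and 518.6, and Clec4f, a Kupffer cell lectin, reached 163.5 in high 1. Apoe stood above the Kupffer cell and macrophage sum in every library. It was above the stellate sum in each low and high library and below it in each neg and sub library. A sum of marker transcripts has no set relation to the Apoe level of the cells it marks, so no source of Apoe is read from these values. The part of these cells in the Apoe level was not tested.

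Apoa1, the main protein of high-density lipoprotein, had its highest mean in neg, where Apoe had its lowest. Its normalised count was 405.6, 616.4 and 210.5 in neg, 0, 0 and 349.1 in sub, 0, 247.2 and 0 in low, and 7.8, 0 and 152.7 in high. It was above 0 in all neg libraries and in only 4 of the 9 EGFP-positive ones, and high lay below neg without overlap at 0.13 times its mean. The log2 difference between high and neg, −5.09, had an SE of 3.01; in each EGFP-positive population libraries at 0 stood beside others well above it. Apoa1 lies at chr9:46228580-46230466 on the plus strand (ENSMUSG00000032083.8).

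Fgb, Serpina1a and Cps1 were present only in scattered libraries. Fgb encodes the beta chain of fibrinogen, the precursor of fibrin clots. It was listed at 0 in all neg libraries, at 1150, 0 and 0 in sub, at 3.0, 0 and 0 in low and at 0, 47.5 and 0 in high. A single library, sub 1, carried nearly all of its signal; without it, the log2 difference between low and sub turned from −2.73 to 0.66. In sub the partner chains went with it: Fga was at 352.3, 0 and 43.9 and Fgg at 577.0, 0 and 20.9. All 3 chains were thus highest in sub 1 and at 0 in sub 2. In low and high the partner chains were not as sparse, save for Fgg in low. Fga was at 806.7, 1342 and 1583 in low and at 416.2, 1368 and 461.5 in high. Fgg was at 570.7, 0 and 0 in low and at 326.2, 131.4 and 610.9 in high. The 3 chains are assembled into the same protein, and in low and high their transcripts were not listed in like amounts. Fgb lies at chr3:83040141-83049863 on the minus strand (ENSMUSG00000033831.5).

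Serpina1a encodes a form of alpha-1-antitrypsin, an inhibitor of neutrophil elastase. It was listed at 207.1, 0 and 252.4 in sub and at 0 in all libraries of neg, low and high. It belongs to a cluster of near-identical copies, and its transcript was 96.5% to 98.6% identical to those of Serpina1b, Serpina1c, Serpina1d and Serpina1e over about 84% of its length, so reads can be split among them and the single row is uncertain. The summed level of the copies was 1618 ± 1249 (SD, n = 3) in sub and 710.5 ± 391.0 in high, but 169.9 ± 94.1 in low and 176.9 ± 269.6 in neg. The summed copies were above 0 in every EGFP-positive library, with 1 to 4 of them above 0 in each, and also in neg 1 and neg 3, and the neg mean was not below that of low. Serpina1a lies at chr12:103853589-103863562 on the minus strand (ENSMUSG00000066366.14).

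Cps1, carbamoyl-phosphate synthetase 1, catalyses the entry step of the urea cycle and is among the most abundant mitochondrial proteins of the hepatocyte. It was at 20.7, 0 and 0 in neg and at 218.9, 0 and 0 in low, and it was listed at 0 in all sub and high libraries. Its log2 difference between low and neg, 1.11 ± 2.10 (SE), became −1.48 without low replicate 1, the library that carried it. The rest of the urea cycle was equally sparse: Otc and Nags were listed at 0 in all 12 libraries, and Ass1 and Asl were at 0 in 4 and 6 libraries. Cps1 lies at chr1:67123026-67231259 on the plus strand (ENSMUSG00000025991.8).

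Counting members whose libraries did not overlap between populations gave the following. Against neg, sub and low each had the same count: 5 of 9 members (Alb, Ahsg, Trf, Ttr and Apoe) were higher without overlap, where 4.69% and 8.38% of the 16128 genes were. In high against neg the same 5 were higher (10.2% of genes) and Apoa1 was lower (8.61%). Alb and Ahsg were higher in low than in sub (5.75% of genes), and Apoe was lower (5.99%). Ahsg, Trf and Apoe were higher in high than in low (4.06%). As the members were chosen on these levels, nothing is read from the difference between their counts and the shares of all genes.

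Per kilobase of the longest coding transcript, Apoe was the highest member in every population, with a mean per-kilobase level of 8385, 14017, 11214 and 14191 from neg to high. Alb was next in sub, low and high at 1740, 5529 and 5864 per kilobase, while in neg Apoa1 at 396.9 came before Alb at 79.4. Ahsg followed in low and high at 2204 and 3550 per kilobase; in both populations Apoe, Alb and Ahsg were separated from each other without overlap. In sub, Alb, Trf at 954.3 and Ahsg at 868.5 overlapped and their order is not resolved. Ttr and Trf overlapped in low and in high, and in sub, low and high the members below Apoa1 overlapped their neighbours.

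The balance between members was examined as the ratio of each normalised count to that of Alb in the same library, a quantity that the scaling of the library cancels. Ahsg was at 0.227, 0.988 and 0.317 times Alb in sub, 0.409, 0.253 and 0.253 in low, and 0.496, 0.392 and 0.449 in high. Over the 9 EGFP-positive libraries this ratio covered a 4.35-fold range, the narrowest of the 4 members with a value in all 9. The sub 2 library, which had the lowest Alb among the 9, gave the highest Ahsg ratio, and without it the range was 2.18-fold. Ahsg had 1 read in neg while Alb was at 301.2 and 183.5 in libraries 1 and 3, and its ratio in those libraries was 0.0023 and 0.

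Trf was at 0.508, 1.19 and 0.717 times Alb in sub, 0.143, 0.143 and 0.102 in low, and 0.178, 0.173 and 0.211 in high, an 11.6-fold range that was 7.01-fold without sub 2. The sub ratios lay above all low and high ratios. Apoe was at 5.65, 13.8 and 3.46 times Alb in sub, 2.12, 1.53 and 0.938 in low, and 2.0, 1.62 and 1.47 in high, a 14.7-fold range (6.02-fold without sub 2), with sub again apart. In neg, where Alb was low, Apoe was 46.2 and 49.7 times Alb in libraries 1 and 3, and Apoa1 was 1.35 and 1.15 times Alb.

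Ttr was the most variable member with a value in all 9 libraries. It was at 0.140, 0.103 and 0.0021 times Alb in sub, 0.102, 0.0018 and 0.026 in low, and 0.124, 0.139 and 0.063 in high, a 76.2-fold range. The ratio in sub 3 and low 2 was far below the others of the same population, and high had no such library. Apoa1 was at 0 in 5 of the 9 libraries and at most 0.0674 times Alb, Fgb was at 0 in 6 and at most 0.278, Serpina1a was at 0 in 7 and at most 0.0501, and Cps1 was at 0 in 8 and at most 0.0268. Among the members with a value in all 9 libraries, the range of the ratio to Alb thus went from 4.35-fold for Ahsg to 76.2-fold for Ttr. For Apoa1, Fgb, Serpina1a and Cps1 most ratios rest on values of 0, which are common in these libraries. Reads of Serpina1a can also be split among its copies, so no proportion to Alb is read for these genes.

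**Figure D2:**
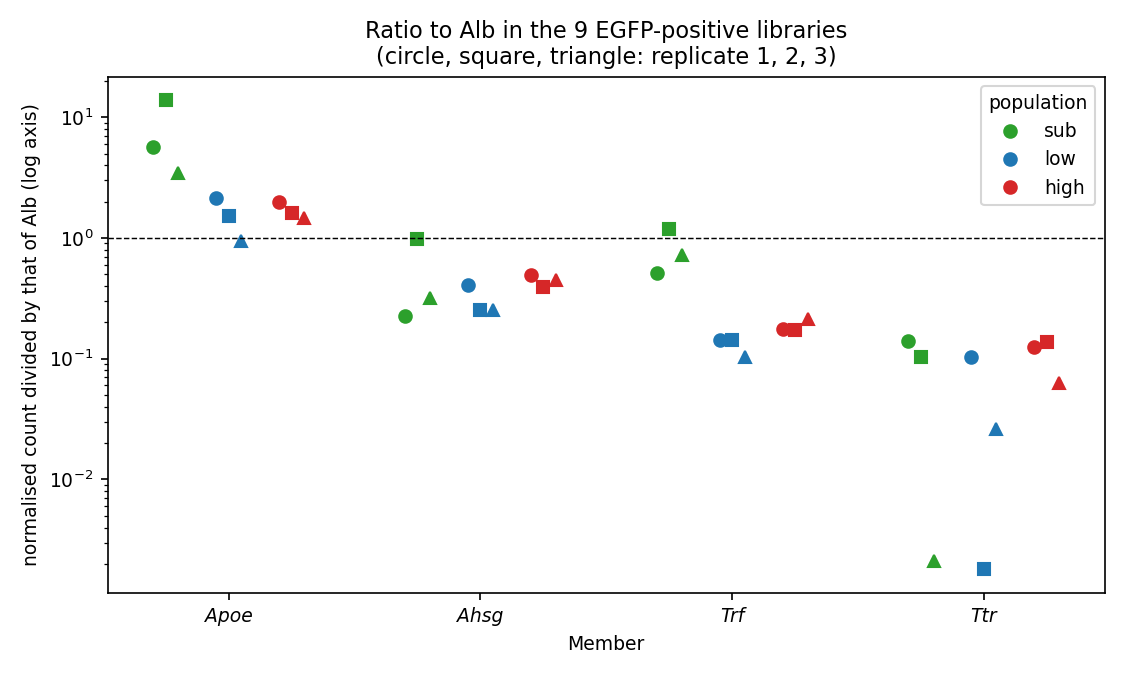
Normalised count of Apoe, Ahsg, Trf and Ttr divided by that of Alb in the same library, on a log axis, for the 9 EGFP-positive libraries; colours give the population, symbols the replicate number and the dashed line a ratio of 1. Trf and Apoe ratios in sub lie above those in low and high, and Ttr has 2 libraries, sub 3 and low 2, near 0.002.

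Summed, the 9 members took 0.118% of the normalised counts in neg and 0.25%, 0.287% and 0.369% with rising EGFP. The sum, 12578 ± 2769 (SD, n = 3) in neg, was 27911 ± 5211 for sub, 32283 ± 2935 for low and 40775 ± 2488 for high. Apoe made up most of it in neg: without Apoe the sums were 771 ± 327, 8175 ± 3536, 16494 ± 4103 and 20794 ± 2249. Endothelial markers ran the other way, from 186993 ± 35052 in neg to 1003 ± 462 in high. The part of the other cell types in the member sums was not tested.

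**Figure D3:**
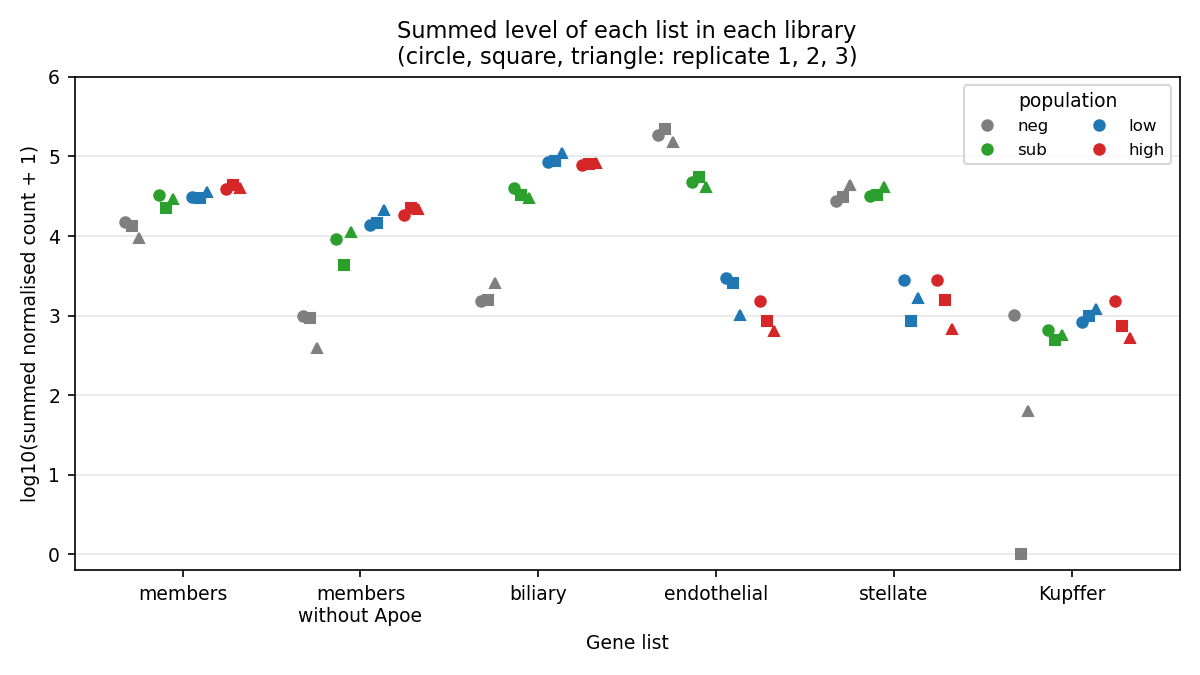
Summed normalised count of the members and of marker lists in each library, as log10(sum + 1); colours give the population and symbols the replicate number. Members without Apoe and biliary markers are lowest in neg, endothelial markers are highest in neg, lower in sub and lowest in low and high, and stellate markers are high in neg and sub only.

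The wider set of plasma-protein genes was then tested, in a list of 57 genes written with earlier results of these data known. Of these, 11 were listed at 0 in all 12 libraries (among them Apoa2, Apoc3, C8a, C9, Cpb2, Hp, Hrg, Kng1, Orm1 and Pon1). A further 7 had a mean under 10, and 1 (C5) had no row under that symbol. The other 38 passed the filter. In sub against neg 4 rose (Ambp, Apob, Cp and Itih2) and none fell, where limma with Benjamini-Hochberg adjustment called 1.04% of all genes higher and 0.149% lower. In low against neg 5 rose, the same 4 and Proc, and 1 fell, against 2.55% and 2.15% of genes. In high against neg the same 5 rose and 1 fell, against 2.44% and 2.25%. The median log2 difference over the 38 genes was 1.49, 1.39 and 2.02 in these comparisons, and over all 16128 genes it was 0.0, 0.0 and 0.13.

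These calls are fragile. Leaving out any single sub or neg library brought the 4 called in sub against neg down to between 0 and 2 genes, as did several other settings given in the closing section. A fit of only the 2 populations compared called 0 of the 38 in low and in high against neg, where it called 203 and 341 of all genes; in sub against neg it called 0 of all genes. On the recovered reads of 12 libraries, Cp passed in sub against neg with edgeR (adjusted p = 0.00272) and DESeq2 (adjusted p = 0.0135), Apob with DESeq2 alone (adjusted p = 0.0101, and 0.274 with edgeR), Itih2 with neither (adjusted p = 0.45 with edgeR and 0.374 with DESeq2), and Ambp not with edgeR (adjusted p = 0.26). In low against neg edgeR did not call Itih2 (adjusted p = 0.0513), Apob (0.0708) or Proc (0.051). DESeq2 did not call Itih2 there either (adjusted p = 0.0793) but called Apob (0.00174) and Proc (8.97e-05). In high against neg edgeR called all 5 risers, at adjusted p = 0.00686 (Ambp), 0.0274 (Apob), 1.86e-05 (Cp), 0.0169 (Itih2) and 0.0471 (Proc). Of the 5 risers, every low and every high library was above every neg library.

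Over the 12 libraries, among genes with a mean of at least 100, Cp had the highest correlation with Alb. Cp encodes ceruloplasmin, the copper-carrying ferroxidase of plasma. Its normalised count was 1358, 0 and 402.7 in neg, 9913, 5491 and 9420 in sub, 15709, 18601 and 15485 in low, and 20849, 23380 and 25246 in high. The 4 populations did not overlap. The log2 difference from neg was 6.61 ± 1.52 (SE, limma adjusted p = 0.0341) for sub, 7.66 ± 1.52 (adjusted p = 0.00516) for low and 8.14 ± 1.52 (adjusted p = 0.00281) for high. Cp shares 108 exon bases with Hps3 on the opposite strand.

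Itih2, a heavy chain of the inter-alpha-trypsin inhibitor that is linked to hyaluronan, was at 0, 606.6 and 0 in neg, 1423, 1287 and 1365 in sub, 2134, 4195 and 2730 in low, and 4155, 6094 and 4528 in high. It rose by 7.33 ± 1.68 (adjusted p = 0.0341, limma), 8.42 ± 1.68 (adjusted p = 0.00543) and 9.16 ± 1.68 (adjusted p = 0.00235) on the log2 scale. Ambp, which encodes alpha-1-microglobulin and bikunin, the light chain of the same inhibitor, averaged 49.4 in neg and 603.8, 1951 and 2542 with rising EGFP. Its log2 difference from neg was 6.44 ± 1.55 (limma adjusted p = 0.0464) in sub and 8.58 ± 1.55 (adjusted p = 0.00205) in high. The heavy chain genes Itih1 and Itih4 were each over 3 reads in only 4 of the 9 EGFP-positive libraries.

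Apob, the structural protein of very-low-density lipoprotein, was at 64.9, 0 and 0 in neg, 839.4, 525.5 and 283.3 in sub, 1182, 742.6 and 620.5 in low, and 1559, 1815 and 1711 in high. It rose by 6.95 ± 1.67 in sub (limma adjusted p = 0.0464) and by 8.71 ± 1.67 in high (adjusted p = 0.0037). Proc, the anticoagulant protein C, averaged 3.9 in neg and 154.9 in sub, and 952.5 and 1010 in low and high, where its log2 difference from neg was 8.65 ± 2.26 (limma adjusted p = 0.0318) and 8.63 ± 2.26 (adjusted p = 0.0321). The rise of Proc in sub, 3.84 ± 2.26, did not pass with limma (adjusted p = 0.653) or edgeR (adjusted p = 0.45). It passed with DESeq2 (adjusted p = 0.0247).

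C3, the central complement component, had the highest mean of the list over the 12 libraries, though Cp averaged more in high. It was at 19505 ± 11270, 22542 ± 5068, 33001 ± 3728 and 21230 ± 5513 (SD, n = 3) from neg to high, and passed in no comparison of the limma fit (adjusted p = 0.0544 for low against neg, where edgeR called it at 0.0385 and DESeq2 did not at 0.357).

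**Figure D4:**
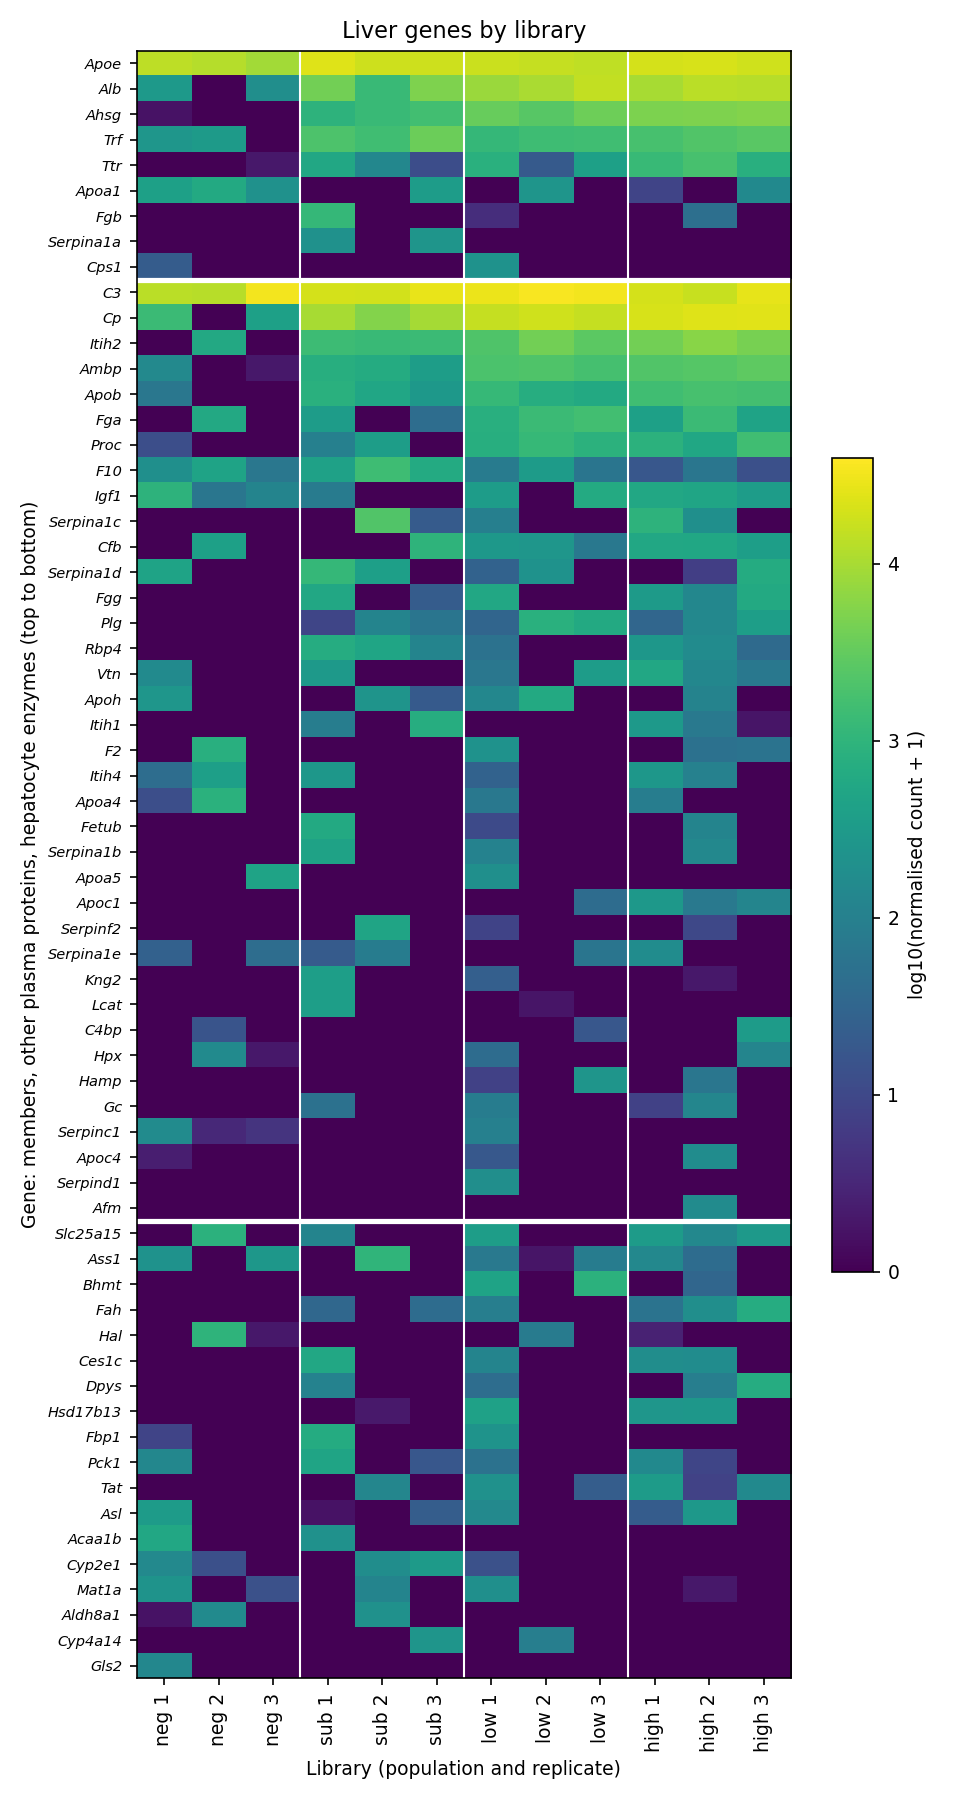
Level of the 9 members and of other plasma-protein genes and hepatocyte enzymes that passed the filter and are reported here (rows, in 3 blocks, each ordered by mean) in the 12 libraries (columns); colour gives log10(normalised count + 1). A few rows, among them Alb, Ahsg, Cp, Itih2, Ambp and Apob, are bright across sub, low and high, and most of the others are at 0 in many libraries.

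Between neighbouring EGFP-positive populations no plasma-protein gene was called. In low against sub limma called 0.13% of all genes higher and 0.614% lower, and 0 of the 38, with 5 at an unadjusted p under 0.05. In high against low limma called 0.0% of genes higher and 0.0% lower; 684 genes, 2 of them on the list, had an unadjusted p under 0.05, while edgeR called 34 genes and DESeq2 646 on the recovered reads. The edgeR and DESeq2 counts for the list in low against sub were 1 each, and both were 0 in high against low.

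Enzymes of hepatocyte metabolism were taken from a list of 42. Here 21 passed the filter and 13 were listed at 0 in all 12 libraries, including Cyp7a1, the rate-limiting enzyme of bile acid synthesis, and the cytochromes Cyp1a2, Cyp2c29 and Cyp3a11; 61.9% of all genes in the table were at 0 throughout. In sub against neg limma called 0 of the 21 (3 at an unadjusted p under 0.05; edgeR called 1 and DESeq2 4). In low against neg (2.55% of all genes higher) and in high against neg (2.44%) 3 rose and none fell. These counts were not stable: each was 1 with a fit of the 2 populations or without a variance trend, low against neg gave 0 without low replicate 1, and high against neg gave 1 without any single high replicate.

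Presence in all EGFP-positive libraries was counted with a floor of 3 reads. It held for 5 of the 9 members, which were chosen on these values. It held for 7 of 56 other plasma-protein genes (Plg, Apob, Ambp, Itih2, Cp, C3 and F10), or 12.5%, and for 2 of 42 enzymes, or 4.8%, beside 6.5% of all genes in the table, most of which are listed at 0 throughout, and 21.8% of the genes that passed the filter. Over the same libraries the ratio to Alb covered a 4.18-fold range for Cp, 5.56-fold for Itih2, 7.3-fold for Ambp, 9.99-fold for Apob and 11.7-fold for C3. Without sub 2 these ranges were 2.38-, 2.63-, 3.36-, 5.03- and 4.35-fold, and that of Ahsg, 2.18-fold, was below all of them.

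Likeness to Alb was also ranked as the Pearson correlation of log2(normalised count + 1) over the 12 libraries, among 9607 genes with a mean of at least 100. The genes outside the members with the highest values were Cp at 0.988, Ano1 (a calcium-activated chloride channel) at 0.984, Cxadr (a junctional adhesion protein) at 0.980 and Myl12a (a myosin regulatory light chain) at 0.977. Among the members the correlation with Alb was 0.874 for Ahsg, 0.766 for Ttr, 0.615 for Apoe, 0.513 for Trf, 0.212 for Fgb and −0.506 for Apoa1. These are descriptions over libraries that share the step from neg to EGFP-positive cells. Over the 9 EGFP-positive libraries alone the correlation was 0.923 for Cp, 0.813 for Ahsg, 0.318 for Ttr, 0.199 for Apoa1, 0.025 for Trf, −0.104 for Fgb and −0.228 for Apoe, so that Apoa1, Fgb and Apoe changed sign. Ano1 and Cxadr, which rank beside Cp over the 12 libraries, are not plasma-protein genes. Over the 9 EGFP-positive libraries Ano1 was at 0.675, Cxadr at 0.558 and Myl12a at 0.871.

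Transcription factors of the liver program were taken from a list of 19. Of the 18 tested, 2 rose in sub against neg (1.04% of all genes), Prox1 among them. In low (2.55% of genes) and in high (2.44%) 6 rose, among them Foxa1, Foxa2, Hnf4a, Onecut1 and Prox1. Hnf4a, a nuclear receptor central to hepatocyte identity, was at 0 in all neg libraries and averaged 1304 ± 559 in low and 792 ± 537 in high, with a log2 difference from neg of 10.27 ± 2.37 in low (limma adjusted p = 0.015) and 9.36 ± 2.37 in high (adjusted p = 0.0265). Prox1, a homeobox factor of liver and lymphatic endothelial cells, averaged 371.9, 3542, 5956 and 6742 in the 4 populations, and rose by 5.33 ± 1.12 in sub (limma adjusted p = 0.0185). Rxra, the partner of many nuclear receptors, averaged 2461 in neg and 1219 to 1673 in the others, and passed in none of these comparisons with neg (limma adjusted p = 0.667, 0.615 and 0.809).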

How the data were processed

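The 12 libraries were built from total RNA with a random-primed kit for small inputs (SMARTer Stranded Pico, v2), per the labels' protocols. The authors deposited normalised counts (a signal value for each gene in each library); Salmon, DESeq2 1.26.0 and mm10 are named, without roles, per the submitters' processing notes. Use of strand in counting is not given in the sources used here. Every value above 0 was a whole multiple (within 0.05 of a read) of 1 step per library in all 12 libraries, so reads could be recovered. Salmon as a rule gives estimates that need not be whole; whether these were rounded before normalisation is not given in the sources used here, so a recovered read, or a 0, may be a rounded estimate. The step was close to 1 in 2 libraries (sub 3 and high 2), and edgeR was run with and without them.

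limma 3.58.1 (R 4.3.3) with a variance trend was fitted to log2(normalised count + 1) of the 16128 genes with a mean of at least 10, over all 12 libraries, and tests were two-sided with Benjamini-Hochberg adjustment over these genes at 0.05. A fold change on this scale understates changes of low genes and, where libraries are at 0, depends on the pseudocount. Floors of 3 reads (2.07 to 3.67 normalised counts) cover counting error only. edgeR 4.0.16 and DESeq2 1.42.0 on recovered reads were alternatives, besides other pseudocounts, filters and scalings, the replicate block, no variance trend, fits of 2 populations and each library left out. The tests were also run on simulated counts. These had the same spread setting for all genes and lacked the frequent values of 0 seen here. That run therefore does not show how reliable the calls are in these libraries.

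The members and lists were chosen with earlier results of these data known. Named genes are all members; in each list and comparison up to 3 called genes per direction by size of the difference, and the 3 with the highest mean; and the 5 genes most like Alb. Further genes (fibrinogen chains, urea cycle and inter-alpha-trypsin inhibitor genes, and the other called genes of each list) were named after their values were seen. Some genes that these rules would name are not reported here. Gene positions and lengths are from GENCODE M21 on mm10.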

Additional observations from a re-analysis of the deposited data

How the results depend on the processing

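Of 450 recomputed log2 differences of the members, 434 stayed within their spread. In 12 the sign changed, each time with a library left out: Fgb in low against sub (−4.42 to 0.66, the latter without sub replicate 1), Cps1 in low against neg (−1.48 without low replicate 1), and otherwise differences of Alb, Ttr, Apoa1 and Fgb between EGFP-positive populations. Ratios to Alb moved in 2 of 128 cases, both in neg under quantile normalisation, where Ttr was at 0.012 and Apoe at 54.26 times Alb, and summed levels in 0 of 36. Serpina1a read as the sum of its copies was at 176.9, 1618, 169.9 and 710.5 in neg, sub, low and high. Counts of called list genes moved in 50 of 180 cases. Against 4 plasma-protein genes called in sub against neg, the count was 0 with a fit of the 2 populations (which called 0 of all genes) or without a filter, 1 with edgeR on 12 or 10 libraries, no variance trend or a pseudocount of 0.5, 2 with equal totals, and 9 with DESeq2. It was 0 to 2 with a library left out, and 0 without neg replicate 3 or any sub replicate. In low against neg (6) it was 0 with the 2 populations and 2 to 5 with a library left out, lowest without low replicate 2 or 3. In high against neg (6) it was 0 with the 2 populations, 11 with DESeq2 and 2 to 5 with a library left out, lowest without high replicate 2 or 3. In low against sub (0) it was 1 with DESeq2, edgeR on 12 or 10 libraries, and a pseudocount of 5. For the enzymes, sub against neg (0) gave 4 with DESeq2, 2 with edgeR on 10 libraries, 1 with edgeR on 12 or a pseudocount of 5, and 0 to 1 with a library left out. Low against neg (3) gave 1 with the 2 populations, no filter or no variance trend, 7 with DESeq2, and 0 to 3 with a library left out, 0 without low replicate 1. High against neg (3) gave 1 with the 2 populations or no variance trend, 6 with DESeq2, and 1 to 3 with a library left out. The cause of these moves was not tested. Over all genes, DESeq2 called 1698, 2352 and 2257 genes in sub, low and high against neg, against 192, 757 and 757 with limma.

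Replicate numbers are shared between populations, as are the suffixes of the library names, and the labels do not say what either marks. In the main fit the numbers were not treated as pairs. Deviations of same-numbered libraries correlated at −0.016 to 0.027 over 18 pairs, with 0 over 0.1. Even so, 8 of 12 libraries were closest to one with their own number. The count to be met without a shared origin was not computed, and whether the numbers mark one was not tested. With the replicate block the plasma-protein counts were 3, 7 and 6 in sub, low and high against neg, and the enzyme counts 0, 3 and 3.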
